A study of Lytechinus variegatus with 64 samples.

Results

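Gonads of juvenile sea urchins labelled as of undetermined kind, here called indeterminate, were set against the adult testis. The animal is Lytechinus variegatus, wild type throughout. These juvenile gonads were taken at 4.5 months post fertilization and gave 3 libraries, and the adult testis gave 4, so 7 of the 64 libraries of the series entered the comparison. One library each of a juvenile testis and a juvenile ovary of the same age served as sexed references. Adults came from a supplier and were dissected, while juveniles were raised from spawned animals in closed aquaria on algal diets. Novogene prepared the adult polyA libraries and AdmeraHealth the juvenile ones, so juvenile age, rearing and provider cannot be told apart in any comparison of the 2 groups. The comparison of the indeterminate libraries with the sexed juvenile libraries is free of that split. How juvenile sex was assigned, whether a library came from 1 animal and whether the replicates are different animals is not given in the labels. The p-values below therefore cover the variation among these libraries, which may be technical alone.

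A sea urchin gonad holds a germ line and large somatic cells, the nutritive phagocytes, which store nutrients that the germ cells draw on as they multiply and mature. In a ripe testis most of the volume is filled by spermatogenic cells and sperm, and in a ripe ovary by eggs. A juvenile gonad first forms as a small rudiment that looks alike in both sexes. The files identify genes by locus identifiers without product names, so no gene below is given a name or a role, and known germ cell genes could not be looked up. Sets of genes specific to each adult sample type, chosen on adult libraries alone, stand in for cell type markers.

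The table held raw read counts for 25887 genes. The indeterminate libraries held 33697485, 50984008 and 34363013 counts, and the testis libraries from 21988079 to 26822145. The juvenile testis had 32855035 counts and the juvenile ovary 34624033. Levels below are library-size scaled counts (CPM) adjusted by the TMM method over all libraries. They compare a gene between libraries and not 1 gene with another, since gene length was not taken into account.

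The 3 indeterminate libraries did not form a tight group. Across 21194 genes, indeterminate library 1 had a Spearman rho of 0.864 with library 2 and 0.772 with library 3, and libraries 2 and 3 had 0.852. Library 1 lay closer to each adult testis library (rho 0.852 to 0.886) than to the juvenile testis (0.842) or the juvenile ovary (0.824). Library 2 was closest to the juvenile ovary (0.909), and had 0.834 with the juvenile testis and 0.785 to 0.841 with the testis libraries. Library 3 was also closest to the juvenile ovary (0.854), with 0.795 for the juvenile testis and 0.724 to 0.786 for the adult testis. The 4 testis libraries had 0.852 to 0.921 with each other. Genes are not independent replicates and the juvenile libraries share a provider, so these coefficients describe the libraries only. Because the libraries differed in this way, the group comparison is followed by an account of each library alone.

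No gene passed the test between the groups. With edgeR's quasi-likelihood test on the 7 libraries, 0 of 20521 genes were called higher and 0 lower (0.0% each) at an adjusted p under 0.05 and a log2 fold change of at least 1. The smallest adjusted p was 0.122. An unadjusted p under 0.05 was reached by 3135 genes, 15.3% of those tested, and the median log2 fold change over all genes was -0.01. The DESeq2 Wald test called 622 higher and 805 lower genes (3.35% and 4.34% of 18568). A single edgeR fit over all groups with 3 or 4 libraries, which shares its estimate of spread among all tissues, called 394 higher and 420 lower (1.67% and 1.78% of 23592). Without indeterminate library 1 the edgeR test called 69 higher and 8 lower genes. In data simulated for this comparison, on 19826 genes, the edgeR test found 0% of the genes given a log2 change of 1.5, 25.4% at a log2 change of 3 and 75.8% at 6.

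Consistent shifts were therefore described by a rule without a test. A gene was counted where every indeterminate library lay on 1 side of every testis library, the group means were at least 4-fold apart with 0.5 CPM added, and the higher mean reached 10 CPM. Of the 9894 genes that reached 10 CPM in either group, 118 were higher in the indeterminate gonads (1.19%) and 315 were lower (3.18%). Without the fold limit 1993 genes (20.1%) had no overlap, 1054 of them higher and 939 lower, so the excess of lower genes was seen at the 4-fold limit and not in this wider count. The genes next to the limit differed 4.007-fold inside it and 3.9993-fold outside it. The rule used the same 7 libraries as the tests, so no p-values or calls are counted over these genes. Leaving out indeterminate library 1 raised the counts to 425 higher and 535 lower. Leaving out library 2 gave 130 higher and 387 lower, and leaving out library 3 gave 191 and 364. Separation is easier to meet with fewer libraries, so part of such a rise is built into the rule. In bulk tissue a lower level may come from fewer cells of a type or from less RNA per cell, and the 2 cannot be told apart.

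**Figure D1:**
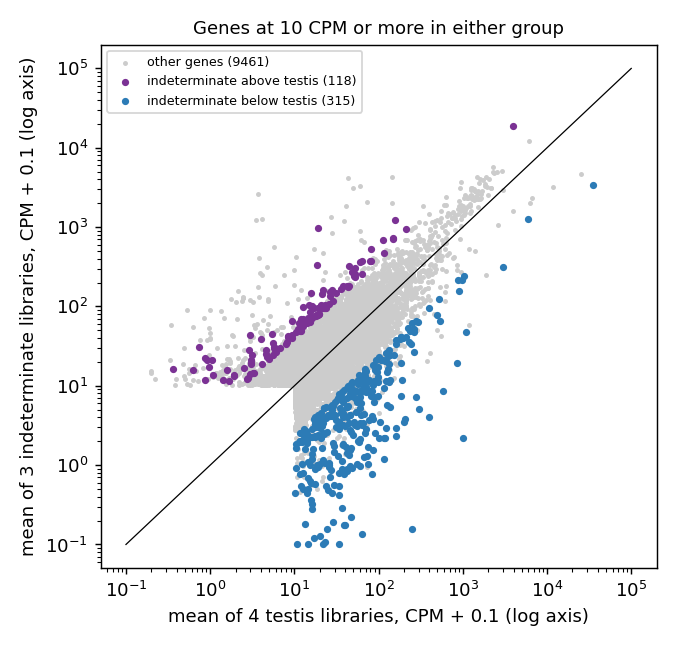
Each point is a gene at 10 CPM or more in either group, with the mean of 4 testis libraries on the x axis and the mean of 3 indeterminate libraries on the y axis (CPM, both axes logarithmic, equal levels on the black line). The 118 purple genes lay above testis and the 315 blue genes below it without overlap of the libraries, and the blue genes reach much farther from the line.

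The lower genes include transcripts that were well above the indeterminate gonads in every testis library. LOC121410372 had 4.03, 1.92 and 0.352 CPM in indeterminate libraries 1, 2 and 3 and 2956, 352, 58.0 and 632 CPM in testis libraries 1 to 4. Every testis library lay above every indeterminate library. The group means differed 384-fold (log2 fold change -8.95 ± 1.69 SE in edgeR, adjusted p = 0.122). The size rests in part on testis library 1, since the log2 ratio of means was -8.59 with all libraries and -7.06 without it. The juvenile testis had 1564 CPM and the juvenile ovary 0.853. The sexed juveniles thus fell on opposite sides, with the ovary inside the indeterminate range.

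LOC121413421 had 0.0415, 0.126 and 0 CPM in the indeterminate libraries, which is 2, 8 and 0 reads, and 11.4, 539, 427 and 13.1 CPM in the testis libraries. The testis values fell into a high pair and a low pair, and all of them lay above the indeterminate values. The juvenile testis, with 0.151 CPM, and the juvenile ovary, with 0.427, were close to the indeterminate libraries and far from the adult testis. In edgeR its log2 fold change was -12.02 with a SE of 2.13 (adjusted p = 0.122).

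The sexed juvenile library of the same age and provider sorted the 315 lower genes. The juvenile testis lay at least 4-fold above every indeterminate library in 147 of them (46.7%), against 4.49% of all 9894 genes. It was inside the adult testis range in 198 (62.9%, against 50.2% of all genes) and below that range in 105, against 2453 of all 9894 genes. In 70 genes it was no higher than the highest indeterminate library, against 7063 of all 9894 genes. The juvenile ovary lay 4-fold above every indeterminate library in 7 of the 315 (2.22%, against 0.435% of all genes) and below the testis range in 286, against 3127 of all 9894 genes. The rule chose the 315 genes for low indeterminate and high testis levels. It thus favoured any other library to lie above the indeterminate libraries and below the testis range. LOC121406918, picked after its values were seen as a further gene of the first kind, had 4, 0 and 1 reads in the indeterminate libraries (0.0831, 0 and 0.0251 CPM) and 188, 19.3, 4.90 and 41.3 CPM in the testis libraries. Its juvenile testis level, 87.3 CPM, was inside the testis range, and its juvenile ovary level was 0.0656 CPM.

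Many of the lower genes were testis genes within the adult atlas. Testis had the highest mean of the 14 replicated adult types for 163 of the 315 (51.7%), against 11.8% of all 9894 genes, although the rule itself favours genes that are high in testis. Gut had the highest mean for 29 (9.21%, against 10.3% of all genes) and ovary for 24 (7.62%, against 31.0%). Of the 112 genes specific to adult testis, 22 were among the 315 (19.6% of the set and 6.98% of the lower genes). The set makes up 1.13% of all 9894 genes. Both the set and the rule ask for high levels in the same 4 testis libraries, so this overlap is favoured in advance. The most abundant lower gene, chosen after its values were seen, was LOC121423851, with 448, 4458 and 5371 CPM in the indeterminate libraries and 23450, 34804, 64004 and 16544 in testis. The juvenile testis had 22328 CPM and the juvenile ovary 29602, so both sexed juveniles were inside the adult testis range and above all indeterminate libraries. LOC121423558, chosen in the same way, had 1640, 1036 and 1098 CPM in the indeterminate libraries and 2696, 7336, 10219 and 3226 in testis, and the 2 sexed juveniles had 2201 and 2313. Its highest mean among the replicated adult types was in radial canal, at 11441 CPM, above the 5869 CPM of testis. These 2 genes were expressed in all groups, and their edgeR log2 fold changes were -3.43 ± 1.04 and -2.30 ± 0.69 (SE), at adjusted p of 0.179 and 0.178.

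The higher genes were smaller in range. LOC121430979, a long noncoding RNA gene, had 58.1, 92.0 and 2810 CPM in the indeterminate libraries and 12.3, 14.2, 28.7 and 19.8 CPM in testis. All juvenile libraries were above all testis libraries, but indeterminate library 3 alone held most of the signal. The log2 ratio of means was 5.68 with all libraries and 1.97 without library 3 (edgeR log2 fold change 5.64 ± 1.29 SE, adjusted p = 0.141). In the juvenile testis it had 458 CPM and in the ovary 757.

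LOC121431873 had 2.66, 66.6 and 23.7 CPM in the indeterminate libraries and from 0.0611 to 1.21 CPM in testis. The juvenile testis, with 2.54 CPM, was close to indeterminate library 1, and the juvenile ovary, with 133 CPM, was above library 2. Eggs held 7.15 to 346 CPM of this transcript. In edgeR its log2 fold change was 5.54 with a SE of 1.16 (adjusted p = 0.129), and its log2 ratio of means went from 4.80 to 3.60 without indeterminate library 2.

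A further pair of genes was chosen, after their values were seen, for the widest gap between the groups. LOC121411122 had 292, 438 and 273 CPM in the indeterminate libraries and 25.2, 28.0, 11.5 and 9.61 CPM in testis, and edgeR gave it a log2 fold change of 4.09 ± 0.53 (SE) at an adjusted p of 0.122. Both sexed juveniles were on the side of the indeterminate gonads, with 409 CPM in the testis and 934 in the ovary. LOC121430571 had 9.97, 14.2 and 39.1 CPM in the indeterminate libraries and 0.459 to 1.04 in testis. The sexed juveniles had 43.2 CPM in the testis and 5.12 in the ovary, and the adult level was highest in gut.

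Among the 118 higher genes the sexed juveniles mostly lay above the adult testis range, but the juvenile testis was often below the indeterminate gonads. The juvenile testis was above every adult testis library in 85, against 2471 of all 9894 genes, and the juvenile ovary in 112, against 3199 of all genes. The juvenile testis reached the lowest indeterminate library in only 40 of the 118, against 7205 of all genes. It was inside the adult testis range in 30, against 4970 of all genes. The juvenile ovary reached the lowest indeterminate library in 100, against 7841 of all genes. The rule chose these genes for low testis and high indeterminate levels. Any other library was thus favoured to lie above the testis range and below the indeterminate libraries. Age and provider cannot be told apart in these genes. The adult type with the highest mean was eggs for 44 and ovary for another 44 (37.3% each, against 12.8% and 31.0% of all 9894 genes), and testis for 3. The rule asks for low testis levels, so testis is disfavoured as the highest type and the other types are favoured in advance.

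**Figure D2:**
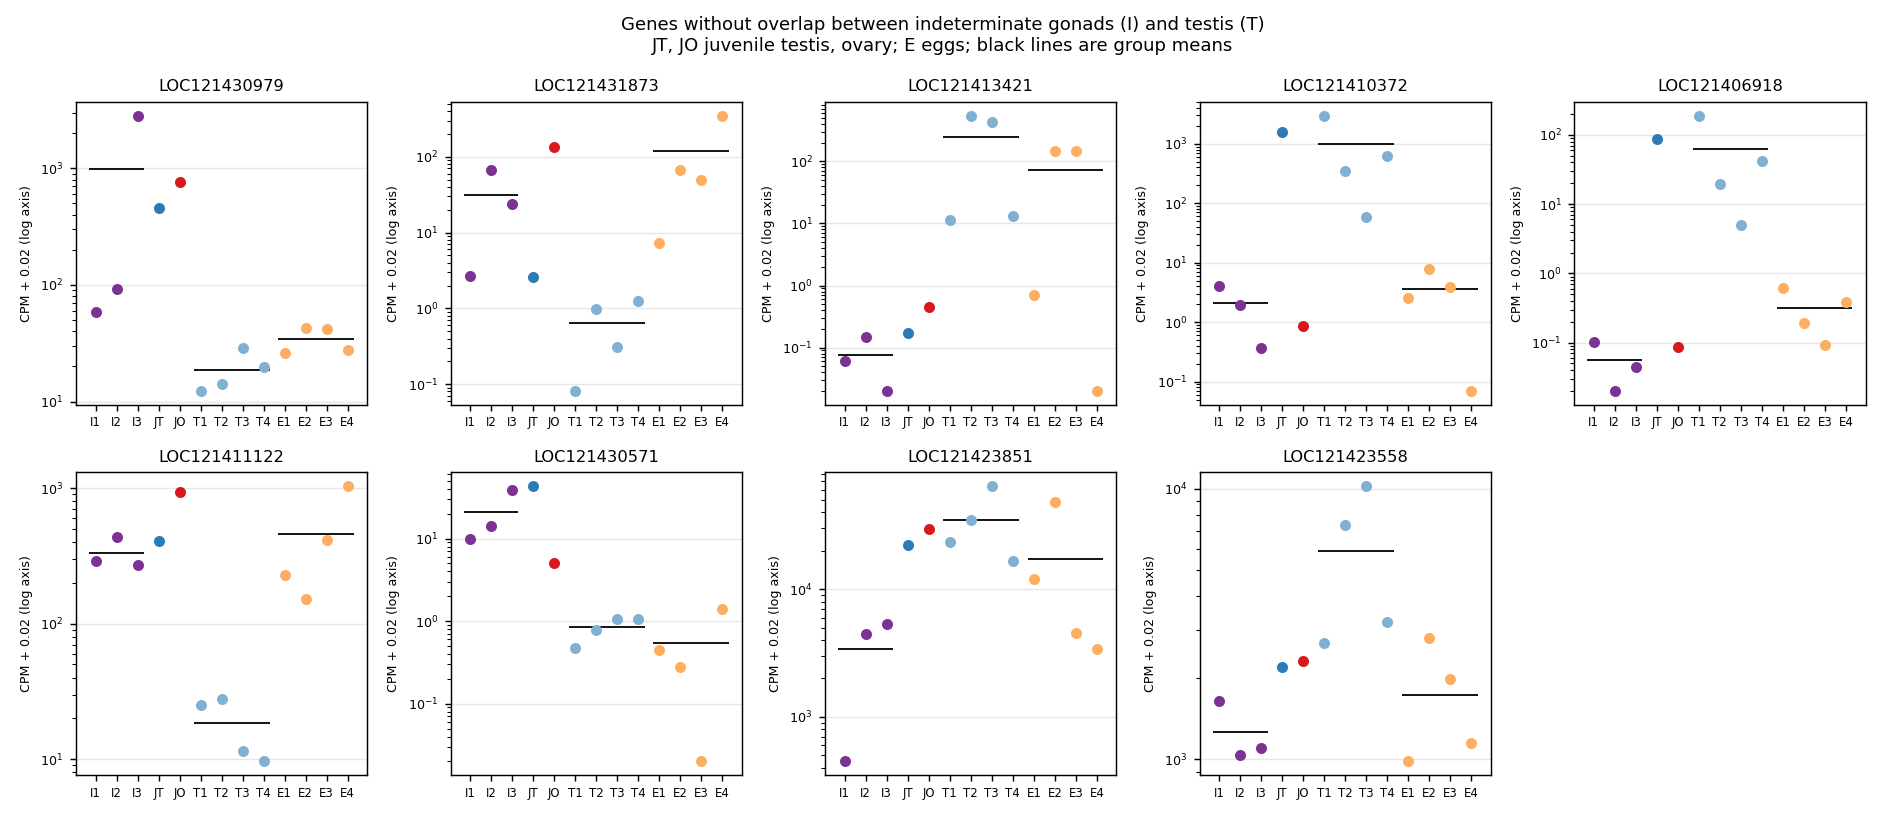
CPM (logarithmic axis) of 9 genes without overlap in each library, with black lines at the group means. The juvenile testis (JT) stands with adult testis in LOC121410372 and LOC121406918, while both sexed juveniles stand with the indeterminate gonads in LOC121413421 and LOC121411122.

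The shifts were not evenly shared by the libraries. Testis library 1 held the highest testis value in 160 of the 315 lower genes (50.8%, against 41.9% of all 9894 genes) and testis library 3 in 108. Indeterminate library 1 was the lowest of its group in 60 of the 118 higher genes (50.8%, against 29.0% of all genes). Among the 315 lower genes the order of the indeterminate libraries was close to that over all genes, with library 1 highest in 45.7% (47.8% of all genes) and library 3 lowest in 46.7% (48.0%).

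Genes of the 2 groups were also described by RNA class and position, which the rule did not use. Protein-coding genes made up 9575 of the 9894 genes, with 114 higher and 300 lower. Of the 225 long noncoding RNA genes, 2 were higher and 14 lower (6.22%, against 3.18% of all genes), and their median log2 ratio was -0.43 against 0.09 for all genes. The 13 transfer RNA genes at this level, all mitochondrial by their identifiers, had a median of -1.25, with none past the rule. By the order of loci in the RefSeq table of assembly Lvar_3.0, 16 of 630 neighbours of lower genes were themselves lower genes (2.54%, against 1.22% of all locus genes), and no run was longer than 2 genes. For the higher genes it was 2 of 234 neighbours (0.855%, against 0.457%).

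Summed over whole libraries, 5 RNA classes separated the groups without overlap. Long noncoding RNA genes took 1.96% to 3.0004% of counts in the indeterminate libraries and 3.02%, 5.82%, 7.69% and 5.35% in testis. Indeterminate library 3 and testis library 1 were nearly equal. The juvenile testis, with 4.05%, was inside the adult testis range, and the juvenile ovary, with 2.77%, inside the indeterminate range. Ribosomal RNA took 1.37%, 2.70% and 4.31% in the indeterminate libraries and 0.530% to 0.910% in testis, nearly all of it in the mitochondrial ribosomal RNA genes. The juvenile testis (3.52%) and the juvenile ovary (2.19%) were inside the indeterminate range. Transfer RNA genes took 0.0191% to 0.0567% in the indeterminate gonads and 0.0880% to 0.148% in testis. The sexed juveniles, with 0.0346% in the testis and 0.0251% in the ovary, were inside the indeterminate range. Pseudogenes took 0.382% to 0.475% and 0.491% to 0.630%, with 0.818% in the juvenile testis, above every adult testis library, and 0.294% in the juvenile ovary, below every indeterminate library.

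Each of these 5 differences, counting all ribosomal and mitochondrial ribosomal RNA separately, had an exact two-sided permutation p of 0.0571, the smallest that 3 against 4 libraries can give, and 0.0914 after Benjamini-Hochberg adjustment over 8 measures. These 5 classes were chosen after the data had been seen. Genes detected at 1 CPM numbered 16373 ± 993 (SD, n = 3) for the indeterminate gonads and 16145 ± 1021 (n = 4) for testis, and overlapped (exact permutation p = 0.743). The share of counts in the 10 most abundant genes was 9.72% ± 3.40 (SD, n = 3) against 15.9% ± 5.56 (n = 4), with overlap and an exact permutation p of 0.229. The share outside protein-coding genes was 5.58% ± 1.96 (n = 3) against 6.88% ± 1.78 (n = 4), an exact permutation p of 0.457.

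The mitochondrial ribosomal RNA genes did not move as one. DR311_mgr01 had 9440, 21406 and 26334 CPM in the indeterminate libraries and 4538, 5348, 3557 and 2508.5 CPM in testis. The juvenile testis had 27268 CPM and the juvenile ovary 24060, so all juvenile gonads were above all testis libraries. DR311_mgr02 had 181, 236 and 10825 CPM in the indeterminate libraries and 1576, 1142, 538 and 555 CPM in testis. Here indeterminate libraries 1 and 2 lay below every testis library and library 3 above, so the difference of the groups rests on library 3. The log2 ratio of means of DR311_mgr02 was 1.98 with all libraries and -2.19 without library 3.

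Each juvenile library was next compared with the range of the 4 testis libraries. Of the 3 indeterminate libraries, library 1 had the fewest genes outside that range, with 146 genes 4-fold above every testis library (1.74% of genes at 10 CPM in that library) and 53 genes 4-fold below (0.854% of 6206 genes at 10 CPM in every testis library). Library 2 had 302 above (3.59%) and 70 below (1.13%). Library 3 had 359 above (4.57%) and 216 below (3.48%). The juvenile testis had 349 above (4.15%), more than indeterminate libraries 1 and 2, and 27 below (0.435%), fewer than any indeterminate library. The juvenile ovary had 643 above (7.81%) and 96 below (1.55%). For scale, testis library 1 had 277 genes 4-fold above the other 3 testis libraries (3.21%) and 78 below (1.17%), both against a range of 3 libraries. Testis libraries 2, 3 and 4 had 54 (0.645%), 101 (1.22%) and 80 (0.967%) above the others and 3 (0.0471%), 76 (1.14%) and 20 (0.303%) below. By these counts indeterminate library 1 held fewer genes outside the testis range than testis library 1 held outside that of the other 3. These counts were chosen after the data had been seen.

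Within the same age and provider, the juvenile testis and the juvenile ovary span an axis on which each indeterminate library can be placed. Of 10104 genes at 10 CPM in either sexed juvenile library, 1177 were at least 4-fold higher in the testis (11.6%) and 1145 in the ovary (11.3%). With 1 library of each there is no test. On a log2 line from the juvenile ovary (0) to the juvenile testis (1), all 3 indeterminate libraries were at the ovary end for the juvenile testis genes. Their median places were 0.17, 0.10 and 0.07. Indeterminate library 1 was nearer to the juvenile testis in 25.1% of the 1177 genes, library 2 in 9.26% and library 3 in 9.35%. The adult testis libraries were nearer to the juvenile testis in 30.7% to 50.2% of these genes, the adult ovary libraries in 24.6% to 30.9% and eggs in 8.41% to 19.3%.

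On the 1145 juvenile ovary genes the 3 libraries parted. Library 1 had a median place of 0.79 and was nearer to the juvenile testis in 66.9% of them. Library 2 had a median of 0.40 and 35.1%, and library 3 a median of 0.56 and 56.9%. Adult testis libraries were nearer to the juvenile testis in 81.4% to 90.0%, the adult ovary libraries in 61.1% to 69.8% and eggs in 22.5% to 48.3%. On both kinds of gene the percentage of library 1 was inside the range of the adult ovary and below that of the adult testis, while its median place on the genes higher in juvenile testis, 0.171, was above those of the adult ovary libraries, which ran from -0.204 to -0.0681. Libraries 1 and 3 were thus nearer to the low end for most genes of either kind. Library 2 was nearer to the juvenile ovary for most genes of both kinds. The genes were chosen as 4-fold apart between single libraries, which favours the low end for any other library. The adult ovary libraries and testis libraries 2 to 4 were also nearer to the low end on both kinds. At 8-fold, library 3 was nearer to the juvenile testis in 49.4% of the juvenile ovary genes.

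**Figure D3:**
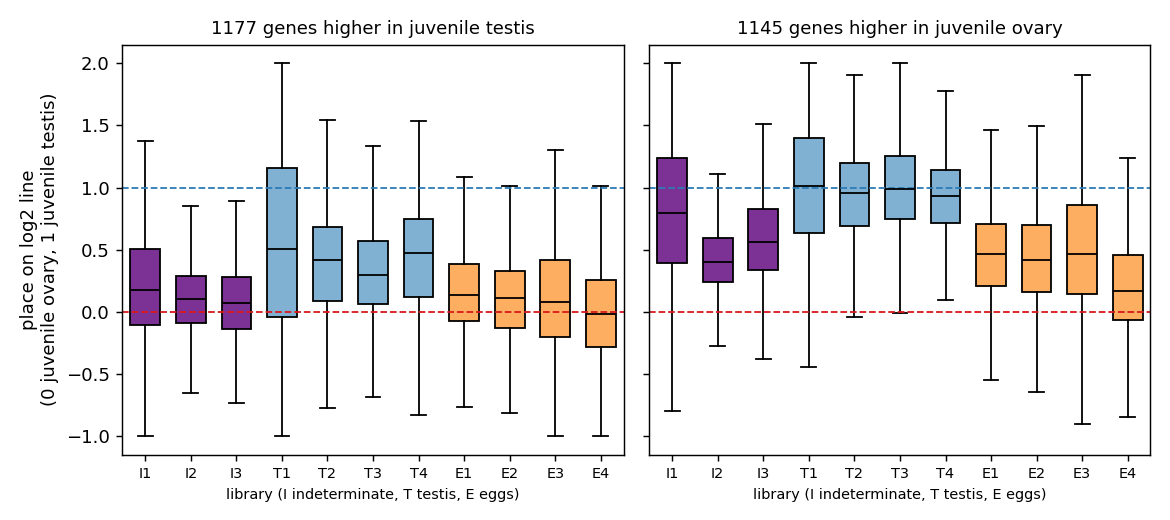
Place of each library on the log2 line from juvenile ovary (0, red dashes) to juvenile testis (1, blue dashes), for 1177 genes higher in juvenile testis (left) and 1145 higher in juvenile ovary (right). Boxes give the median and quartiles over genes, whiskers reach up to 1.5 times the box height, places beyond -1 and 2 were set to those ends, and farther points are not drawn. On the left all indeterminate libraries (I) sit near 0, and on the right library I1 sits above I2 and I3 and below the testis libraries (T).

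At the ends of the line are genes with the largest ratio between the sexed juveniles. LOC121410372, described above, led the testis end. LOC121427625 followed it, with 516 CPM in the juvenile testis, 1.25 in the juvenile ovary and 48.3, 8.98 and 3.92 CPM in indeterminate libraries 1 to 3. Library 1 was the highest of the 3 and was still far below the juvenile testis. At the ovary end, LOC121423894 had 19460 CPM in the juvenile ovary, 340 in the juvenile testis and 2.95, 9241 and 3658 CPM in the indeterminate libraries. LOC121408951 had 15296 CPM, 270 CPM and 2.08, 9049 and 3424 CPM in the same order. For both transcripts libraries 2 and 3 approached the juvenile ovary, and library 1 lay below even the juvenile testis. Eggs held 21706 to 45199 CPM of LOC121423894 and 5831 to 52663 of LOC121408951, and the testis libraries 1.01 to 524 and 0.306 to 155.

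Genes specific to the adult gametes and testis gave a second reading that did not use the juvenile libraries. The set of 112 genes specific to adult testis took 1.63% of counts in indeterminate library 1, 0.141% in library 2 and 0.107% in library 3. The testis libraries themselves ranged from 0.267% to 3.55%, the juvenile testis had 1.17% and the juvenile ovary 0.0507%. Library 1 was inside the testis range and libraries 2 and 3 below it, still above the juvenile ovary. The 95% Wilson interval of each share was narrow at this depth and covers counting error only, so the differences between libraries exceed it.

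Gene by gene, library 1 reached the lowest testis library in 80 of the 112 testis genes, library 2 in 21 and library 3 in 30. The juvenile testis did so in 102 and the juvenile ovary in 10, so the sexed juveniles stood on the sides that their labels give. Against the juvenile testis, library 1 was at least 4-fold lower in 39 of these genes and 4-fold higher in 20. Library 2 was lower in 58 and library 3 in 64, and neither was 4-fold higher in any. Library 1 therefore reached the lowest testis library in most of the set, while 39 genes were at least 4-fold below the juvenile testis. Of the 112 genes, 2 had 0 counts in library 1, 3 in library 2, 11 in library 3 and 2 in the juvenile ovary. Absence of counts thus did not set library 1 apart from library 2 or the juvenile ovary.

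In the set of 58 genes specific to eggs, library 1 was the lowest and library 2 the highest. The set took 0.230% of counts in indeterminate library 1, 6.06% in library 2 and 3.27% in library 3. The testis libraries had 0.0718% to 0.302%, the juvenile testis 0.385% and the juvenile ovary 10.6%, with 6.31% to 19.0% in eggs. Library 1 was inside the testis range, and libraries 2 and 3 had shares above that of the juvenile testis and below that of the juvenile ovary. At 10 CPM, 9 of the 58 genes were present in library 1, 55 in library 2, 50 in library 3, 28 in the juvenile testis and 56 in the ovary of that age. Against the juvenile ovary, library 1 was 4-fold lower in 53 of the 58, library 2 in 8 and library 3 in 30.

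**Figure D4:**
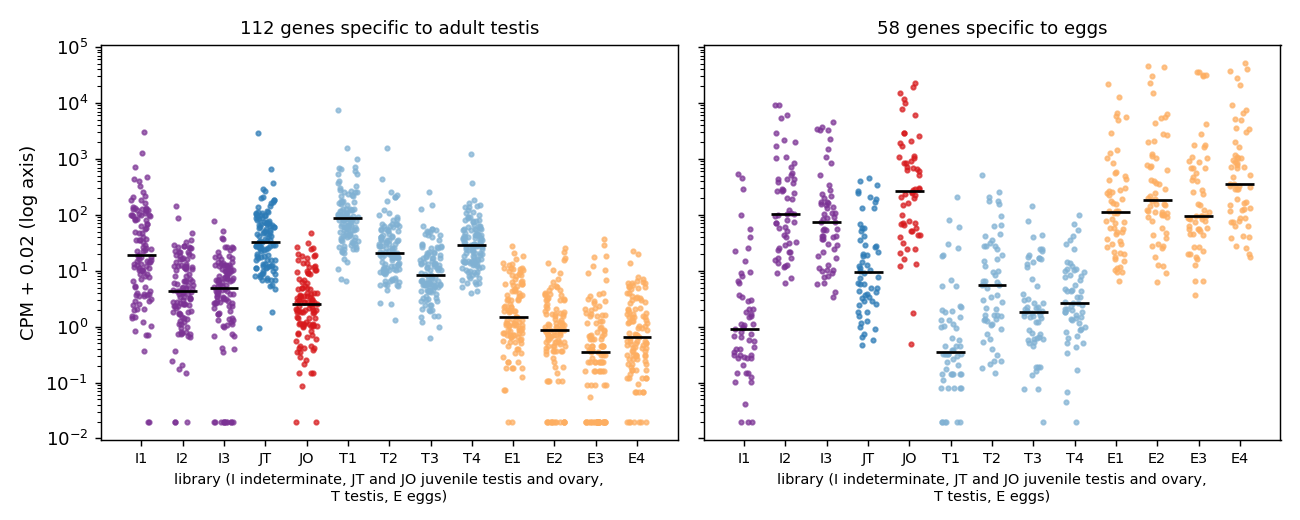
CPM (logarithmic axis) of the 112 genes specific to adult testis (left) and the 58 specific to eggs (right) in each library, 1 point per gene, with black lines at the medians. The median of the testis set in indeterminate library I1 is near that of testis library T2, and the egg set is high in I2 and I3 and low in I1.

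Genes that set 1 indeterminate library apart from the others were counted over 10547 genes at 10 CPM in any of the 3. They share these libraries with the sets above and are not independent of them. Library 1 was at least 8-fold above both others in 112 genes (1.06%) and 8-fold below both in 159 (1.51%). Library 2 stood apart in 22 higher (0.209%) and 4 lower genes (0.0379%), and library 3 in 57 (0.54%) and 58 (0.55%). Library 2 was thus the least distinct of the 3.

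Among the 112 genes high in library 1, testis had the highest adult mean for 67 (59.8%, against 9.63% of the 10547 genes). The juvenile testis was on the side of library 1 in 42, the juvenile ovary in 11 and every adult testis library in 14. Side here and below is set by the log2 midpoint between the library set apart and the nearer of the others. These counts come without a share over all genes. LOC121423111 had 399 CPM in library 1 and 5.50 and 3.97 in the others, beside 117 in the juvenile testis, 3.12 in the juvenile ovary and 331, 69.4, 16.7 and 58.7 in the testis libraries. Its level in library 1 was above that of every testis library. LOC121430326, a long noncoding RNA gene, had 172, 0 and 2.16 CPM, and the juvenile testis (5.06) and juvenile ovary (3.81) were both low. Testis libraries 1 to 4 had 129, 10.8, 2.02 and 20.0 CPM of it, so only testis library 1 came near indeterminate library 1.

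Among the 159 genes low in library 1, eggs had the highest adult mean for 82 (51.6%, against 13.5% of the 10547 genes) and ovary for 43 (27.0%, against 31.7%). Every testis library was on the low side with library 1 in 94, the juvenile testis in 93 and the juvenile ovary in 6. LOC446158 had 0.914 CPM in library 1 and 6018 and 3338 in libraries 2 and 3, beside 188 for the juvenile testis and 9782 for the juvenile ovary. LOC121408951, given above, was the other gene named by the rule.

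Library 3 differed in another way. Of its 57 high genes, both sexed juveniles were on its side in 23, the juvenile testis in 32 and the juvenile ovary in 30, and in none was every testis library. LOC121428833 had 5.75, 5.23 and 7927 CPM in indeterminate libraries 1 to 3, 13592.5 in the juvenile testis, 4260 in the juvenile ovary and 0.306 to 8.65 in adult testis. LOC121428778 had 3.24, 5.46 and 3697 CPM, with 4034 and 1678 in the sexed juveniles and 0.611 to 8.39 in testis. Both transcripts were abundant in 3 of the 5 juvenile gonads and low in indeterminate libraries 1 and 2, and the single stage 1 ovary library had 867 and 1063 CPM. Among its 58 low genes, LOC121419549 had 373, 1242 and 3.37 CPM and LOC121431941 83.7, 42.1 and 0 CPM, with 13.7 and 2.70 in the juvenile testis and 680 and 9.16 in the juvenile ovary. The juvenile ovary was thus on the side of libraries 1 and 2 for LOC121419549. The level of LOC121419549 also ranged from 6.66 to 563 CPM among the testis libraries.

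For library 2 the genes named by the rule were LOC121430371, with 0, 12.7 and 0 CPM in the 3 libraries, and LOC121424402, with 1.60, 134 and 5.33 CPM. Both had their highest adult mean in gut, as no other of the 22 genes did (9.09%, against 10.1% of the 10547 genes), and tube foot had the highest for 6 (27.3%, against 3.62%). The low genes were LOC121421140, with 20.7, 0.268 and 23.1 CPM, and LOC121418186, with 295, 11.1 and 1592 CPM.

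**Figure D5:**
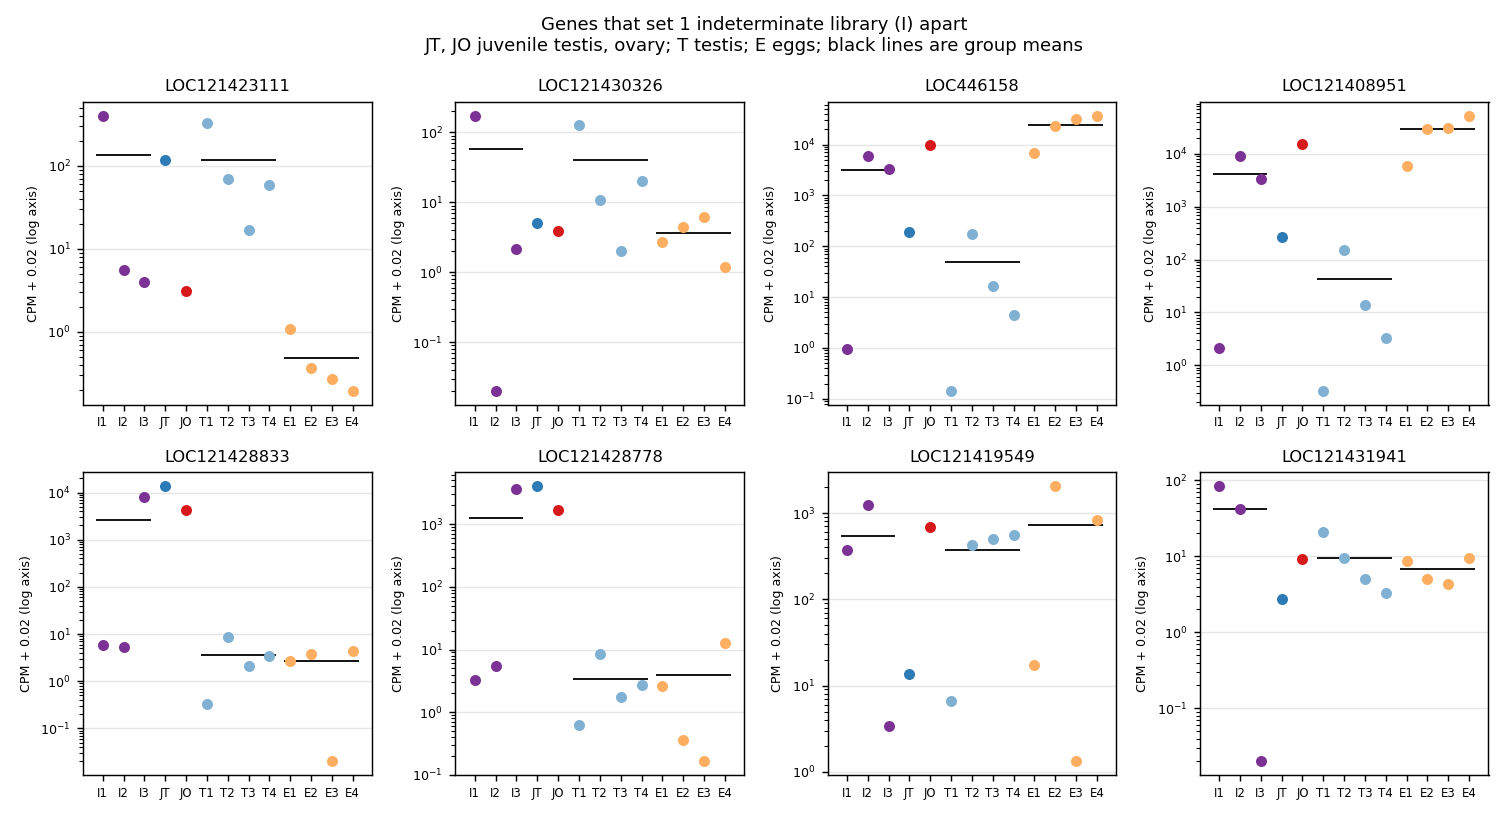
CPM (logarithmic axis) of 8 genes that set indeterminate library I1 (top row) or I3 (bottom row) apart, in each library, with black lines at the group means. In the top row I1 is the highest library for LOC121423111 and LOC121430326, and in the bottom row I3 stands with both sexed juveniles (JT, JO) for LOC121428833 and LOC121428778.

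Genes specific to adult tissues other than the gonads took small shares of counts in both groups. The 198 genes specific to gut took 0.103% to 0.187% of counts in the indeterminate libraries and 0.236% to 0.322% in testis, without overlap, against 4.14% to 8.92% in gut itself. The sexed juveniles had 0.192% in the testis and 0.104% in the ovary. The 35 genes specific to coelomic fluid, the body fluid with its circulating cells, took 0.0180% to 0.0252% in the indeterminate libraries and 0.0249% to 0.0576% in testis, against 1.61% in the fluid. The 1058 genes specific to adult ovary took 4.86% to 7.28% and 3.70% to 6.11%, against 39.2% to 46.3% in the ovary. This set was not low, since 654 to 702 of its genes reached 10 CPM in the indeterminate libraries and 588 to 701 in testis. The sets of the esophagus, mouth, rectum, plates, peristomial membrane, lantern muscle, radial canal, radial nerve and tube foot overlapped between the groups, and none exceeded 0.211% of counts in a library of either group. The part of admixture from other tissues in the differences above was not tested.

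Juvenile libraries of every kind were also set against adult libraries of every kind. Of 9006 genes at 10 CPM in the mean of the juvenile gonads, 1 had all 5 juvenile libraries above all 59 adult libraries with a 4-fold margin between the nearest means (0.0111%), and none had all below. Without a margin 6 genes were above and 1 below. The single gene, LOC121426018, had 38.1, 36.6 and 30.2 CPM in the indeterminate libraries, with 31.8 and 88.2 CPM for the sexed juvenile testis and ovary. The testis libraries had 4.23 to 7.06 CPM, and the highest adult library, of eggs, had 10.1. In edgeR the indeterminate gonads stood 2.60 ± 0.36 (SE) above testis on the log2 scale, with an adjusted p of 0.122. The juvenile libraries are gonads alone and the adult ones span many tissues, so this count sets no limit on what age or provider contributes to the comparison with testis, which was not tested.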

How the data were processed

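PolyA RNA was sequenced as 64 bulk libraries. The authors deposited 1 table of raw gene counts, with no normalization. The submitters' processing notes list the tools STAR, featureCounts and DESeq2 with no version, and the genome build and strand setting are not given in the sources used here, so genes that overlap or have near-identical copies are uncertain. From the table, 3 broken lines were left out, and all 25887 genes matched a RefSeq table of assembly Lvar_3.0, used for RNA class and neighbours only. Library totals ran from 13113913 to 59521125 counts.

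Counts were tested with edgeR 4.0.16 (glmQLFit and glmQLFTest, filterByExpr, TMM, limma 3.58.1, R 4.3.3) and DESeq2 1.42.0, with Benjamini-Hochberg adjustment over all genes tested. Standard errors were derived from each fold change and the F statistic. CPM were TMM-scaled over all libraries. Library measures were tested with an exact permutation test (scipy 1.17.1, 35 splits). Adult sets needed 10 CPM, a 4-fold excess over each other type (0.5 CPM added) and no overlap. The set of coelomic fluid, with 1 library, needed 100 CPM and 8-fold. Named genes are the 2 with the largest ratio in each direction under each rule, and others are marked. Scripts were tested on simulated data with 200 changed genes.

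Members, lists and rules were chosen with earlier results of these data known. The choice of genes for the TMM factors, the genes given to DESeq2 and the reading of the margin between juvenile and adult means were settled after alternatives had been seen. Replicate numbers did not pair the samples: the deviations of same-numbered libraries had r of 0.317, 0.015 and 0.015. Protein properties were not analysed here.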

Additional observations from a re-analysis of the deposited data

Results flagged for a closer look

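In 6 of 66 groups of 4 libraries checked, the highest testis library stood far from the other 3. The cutoff gives about 1 in 20 for independent, normally distributed values. These genes were chosen for large ratios and share their libraries, so that rate does not apply to them. For LOC121427625 the library that stood apart was testis library 1 with 1159 CPM, for LOC121423111 library 1 with 331 CPM, and for LOC121430326 library 1 with 129 CPM. The first is high in the juvenile testis and the other 2 are high in indeterminate library 1. For LOC121423894 it was testis library 2 with 524 CPM, for LOC121408951 library 2 with 155 CPM, and for LOC446158 library 2 with 176 CPM. These 3 transcripts are abundant in eggs and in the juvenile ovary, and their levels in the other testis libraries did not exceed 44.3 CPM.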

How the results depend on the processing

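With 0 genes called in either direction, edgeR also called 0 with DESeq2 size factors, with no filter on low counts and without any one library other than indeterminate library 1. The range over libraries left out was 0 to 69 higher and 0 to 8 lower. DESeq2 gave 622 and 805, and the fit over all replicated groups 394 and 420. With the replicate number as a block (replicate block) 3 higher and 8 lower genes were called. Of the indeterminate libraries, only the first correlated best with the testis library of its own number. The causes of these changes were not tested. Over the 9 genes named for the group comparison, no other setting reversed a log2 fold change, 21 gene and setting pairs passed the adjusted p of 0.05 in the same direction and the other 87 did not, among them LOC121430979 in DESeq2, which gave it no adjusted p.

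The counts without overlap became 676 higher and 684 lower at 2-fold, 16 and 161 at 8-fold, and 49 and 195 with 5 CPM added. Over single libraries left out they ran from 116 to 425 higher and from 321 to 535 lower. The juvenile genes above all adults numbered 2 at 2-fold, 0 with 5 CPM added and 1 to 2 without 1 indeterminate library.

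For the share of juvenile testis genes nearer to the juvenile testis, indeterminate libraries 1, 2 and 3 had 20.2%, 7.03% and 6.08% at 8-fold and 18.2%, 4.71% and 3.36% with 5 CPM added. With DESeq2 size factors libraries 1 and 3 had 21.5% and 11.9%. For the juvenile ovary genes they had 85.6%, 28.1% and 49.4% at 8-fold. Libraries 1 and 3 had 71.1% and 61.1% with 5 CPM added, and 72.0% and 50.9% with DESeq2 size factors.

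Genes that set 1 library apart numbered 343 higher and 304 lower at 4-fold for library 1, 106 and 19 for library 2, and 203 and 274 for library 3. With 5 CPM added they were 43 and 67, 3 and 1, and 27 and 7. Sets chosen at 8-fold (95 testis and 44 egg genes) took 1.49%, 0.103% and 0.0754% of counts for testis and 0.125%, 5.85% and 3.17% for eggs in libraries 1, 2 and 3.

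The difference in genes detected was 228 in favour of the indeterminate gonads. It was -217 at 5 CPM, and -166 to 786 over libraries left out, negative without indeterminate library 3 and without testis library 1 (-107.3). The difference in the share of the 10 most abundant genes was -6.23 percentage points, and 2.11 over the 100 most abundant. Leaving out a library gave -7.98 to -4.24 there, -2.36 to -0.438 for the share outside protein-coding genes, -3.96 to -2.40 for long noncoding, 1.32 to 2.78 for ribosomal, and -0.185 to -0.133 for pseudogene shares.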
